A study of Mus musculus with 6 samples.

Results

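The mitochondrial carrier family, Slc25, was measured in gastrocnemius muscle of male C57BL/6J mice over 3 diets and 2 fasting times. The members were all genes whose probe set carried a single platform symbol starting with Slc25a, apart from 2 genes not analysed here, which gave 42 of the 18193 named genes on the array. Together they had 90 probe sets, and each gene was represented by the probe set whose mean log2 signal over the 6 arrays was highest. Of the 42 members, 36 passed the filter on low signal (a mean log2 signal above 5.88, the median over all non-control probe sets), and 6 lay near background.

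Slc25 carriers are related membrane proteins, most of which sit in the inner mitochondrial membrane and exchange a nucleotide, phosphate, metabolite, amino acid or cofactor between the cytosol and the matrix. In working muscle the ADP/ATP carriers export the ATP made by oxidative phosphorylation, the phosphate carrier returns phosphate, and the aspartate/glutamate and oxoglutarate carriers form the malate-aspartate shuttle, which brings reducing equivalents from glycolysis into the matrix. The mitoferrins bring iron into the matrix, where it is used for heme and iron-sulfur clusters.

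The HF+SFC+ALA diet held 60 kcal% fat plus an iron salt, sodium ferrous citrate (SFC), at 0.023% and a heme precursor, 5-aminolevulinic acid phosphate (ALA), at 0.2% by weight, the HF diet held 60 kcal% fat without them, and the Control diet held 10 kcal% fat. Mice started at 6 weeks of age and ate their diet for 15 weeks, although the sample labels give an age of 21 months. Muscle was taken after 24 h or 4 h of fasting on every diet, and each of the 6 combinations was 1 array of RNA pooled within the group, with the number of animals in a pool not given in the sources used here. There were therefore no replicates within a combination, and each diet had 2 pools and each fasting time 3. P-values set a difference against how far the pools depart from an additive fit of diet and fasting time. For each gene this spread was pulled toward that of genes of similar signal, with more weight on those genes (2 residual and 7.27 prior degrees of freedom).

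Signals are linear intensities scaled to a common trimmed mean of 500.004 on every array. Signals under 26.4, the 30th percentile, were raised to that floor before log2. The ratio of the 3' to the 5' actin control was 1.08 to 1.52 between arrays and highest in the HF pool at 4 h. All 9 markers of fast fibres and muscle passed the filter, with summed signals of 388093 to 449176. All 9 slow-fibre markers also passed, and their summed signal moved between pools: the sum at 24 h over that at 4 h was 0.723 in HF+SFC+ALA, 1.501 in HF and 0.853 in Control. Over 13 genes of mitochondrial content the same ratio was 0.949, 1.10 and 1.03 in those diets. Of 5 measured brown adipocyte markers, 3 passed the filter, and Ucp1 and Elovl3 did not. The HF minus Control differences of those 3 ran from -0.66 in Zic1 to 0.88 in Cidea, and 0 were called.

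Across the 36 members above the filter, the median ratio of the highest to the lowest of the 6 signals was 1.53, beside 1.42 over all 11526 genes tested. The ratio was under 1.25 in 8 members (22.2%), beside 24.1% of all genes. Signals of different probe sets depend on their probes and are not compared between genes. Among the carriers of energy exchange, Slc25a4, which encodes the ADP/ATP carrier of heart and skeletal muscle, had signals of 49602, 57006 and 51800 at 24 h in the HF+SFC+ALA, HF and Control pools, against 53228, 50369.9 and 51022 at 4 h. Slc25a3, the phosphate carrier, had 30503, 34098 and 31845 at 24 h in the same diets, against 31669, 29600 and 31554 at 4 h. In these probe sets both genes varied little, by 1.15-fold between the highest and the lowest pool, and their 24 h and 4 h pools overlapped. Other Slc25a4 probe sets above the filter ran from 41835 to 51682, from 39690 to 43010 and, in a far dimmer one, from 1020 to 1632. The highest signal of any probe set on the 6 arrays was 64863, and whether signals this bright still track RNA amount was not tested.

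Slc25a12, an aspartate/glutamate carrier, was the steadiest of the 36 members, with signals between 12919 and 13711, a 1.06-fold range. Slc25a11, the oxoglutarate/malate carrier, ran from 6160.3 to 7424. Other members with a range under 1.25-fold were Slc25a51, which imports NAD (3840 to 4591), Slc25a36, a pyrimidine nucleotide carrier (2229 to 2677), Slc25a26, which imports S-adenosylmethionine (897 to 1102), and Slc25a46, an outer membrane protein of mitochondrial dynamics (4014 to 4986). These ranges are of the chosen probe sets. Other probe sets above the filter ran wider in Slc25a12 (1256 to 1628), Slc25a36 (237 to 437 and 285 to 365) and Slc25a26 (284 to 360). Those of Slc25a51 (2580 to 2740) and Slc25a46 (3427 to 3755) stayed narrow. The widest ratios of highest to lowest signal were 5.22 in Slc25a45, at the floor in 1 pool, 3.77 in Slc25a1 and 3.03 in Slc25a14. Slc25a16, which is linked to mitochondrial coenzyme A, ran from 1612 to 2033, Slc25a33, a pyrimidine nucleotide carrier, from 1029 to 1308, and Slc25a35 and Slc25a47, without an assigned substrate, from 184 to 267 and from 194 to 312. None of these 4 passed in any comparison.

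**Figure D1:**
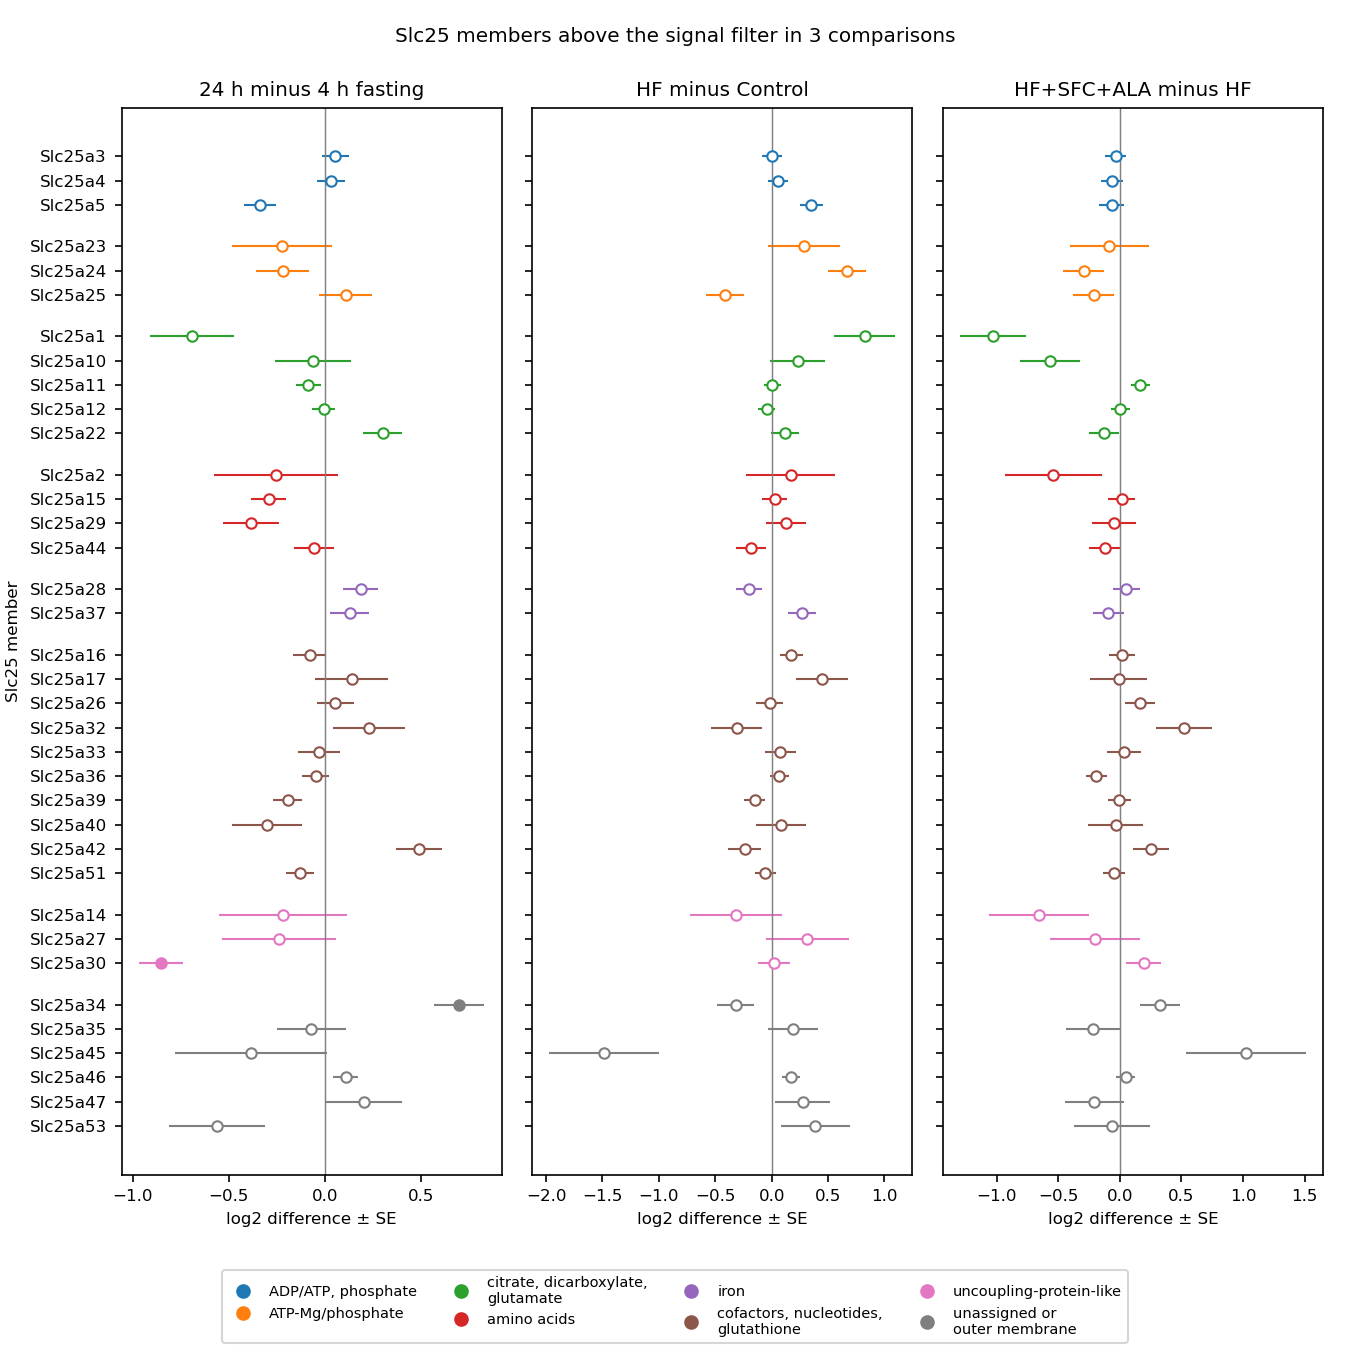
Fitted log2 difference ± standard error (x axis, a separate scale in each panel) of the 36 Slc25 members above the signal filter (y axis, coloured by role) for 24 h minus 4 h of fasting, HF minus Control and HF+SFC+ALA minus HF, over 6 pools. Filled circles passed an adjusted p of 0.05: Slc25a30 at -0.85 and Slc25a34 at 0.70 for fasting, and no member in either diet panel.

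Fasting for 24 h was compared first with fasting for 4 h, within diets. Slc25a30, a carrier related in sequence to the uncoupling proteins, fell with fasting, and Slc25a34, a carrier with no assigned substrate, rose. Slc25a30 had signals of 797, 588 and 586 at 24 h in the HF+SFC+ALA, HF and Control pools, against 1156, 1196 and 1168 at 4 h. The 3 pools at 4 h lay close together, every 24 h pool was below them, and the HF+SFC+ALA pool was the highest of those at 24 h. The fitted change was -0.85 ± 0.12 (log2 difference ± SE over 6 pools, limma, adjusted p = 0.00978), or 1.81-fold lower, with -0.54 in HF+SFC+ALA, -1.02 in HF and -0.996 in Control.

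Slc25a34 had signals of 1033, 1051 and 1122 at 24 h in the HF+SFC+ALA, HF and Control pools, against 797, 495 and 721 at 4 h. Here the 24 h pools lay close together, and the spread was among the 4 h pools, where HF was lowest. The fitted change was 0.70 ± 0.13 (limma, adjusted p = 0.0325), or 1.62-fold higher, with 0.37 in HF+SFC+ALA, 1.09 in HF and 0.64 in Control. The HF pool at 4 h was also the one with the highest actin 3' to 5' ratio and the lowest slow-fibre sum (67784), and the part of either in this result was not tested. With the HF pool at 4 h left out the change was 0.51 (adjusted p = 0.0568), and with that at 24 h left out, which leaves the same pairs, the adjusted p was 0.0656. Without the HF+SFC+ALA pool at 4 h or at 24 h it was 0.86 (adjusted p = 0.0555 and 0.0591), so the call was lost without a pool of either high-fat diet.

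These 2 calls among 36 members stand beside 2.41% called over all genes tested. Of all genes 1.49% were called higher and 0.92% lower. Before adjustment 9 members had a p under 0.05, beside 17.7% of all genes. The 24 h and 4 h pools did not overlap in 7 members, beside 18.9% of all genes, with 3 higher (beside 10.6%) and 4 lower (beside 8.36%). No member differed by 1.5-fold or more in one direction in every diet, where 0.312% of all genes were so higher and 0.243% lower. The fitted difference was positive in 13 of the 36 members, beside 51.7% of all genes, and its median was -0.06, beside 0.01 over all genes. Calls depended on the fit: no member passed without the filter on signal, without the intensity trend, or with the mean over all probe sets of a gene. In simulated data of 11526 genes, with 200 changed and spreads drawn from the fit itself, 75.3% of 2-fold and 42.6% of 1.5-fold fasting changes were recovered. The intensity trend held there by construction, so these shares do not cover data where it fails.

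Slc25a42, the carrier that imports coenzyme A in exchange for adenine nucleotides, had the next positive difference. Its signals were 823, 832 and 888 at 24 h in the HF+SFC+ALA, HF and Control pools, against 702, 490.3 and 638 at 4 h. As in Slc25a34, the lowest pool was HF at 4 h and the groups did not overlap. The difference was 0.49 ± 0.12 (limma, adjusted p = 0.0712), and it ran from 0.35 to 0.62 with 1 pool left out. Slc25a22, a glutamate carrier, had signals of 849, 866 and 886 at 24 h, against 674, 788 and 654 at 4 h, without overlap, and its difference of 0.30 ± 0.10 did not pass (adjusted p = 0.164).

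**Figure D2:**
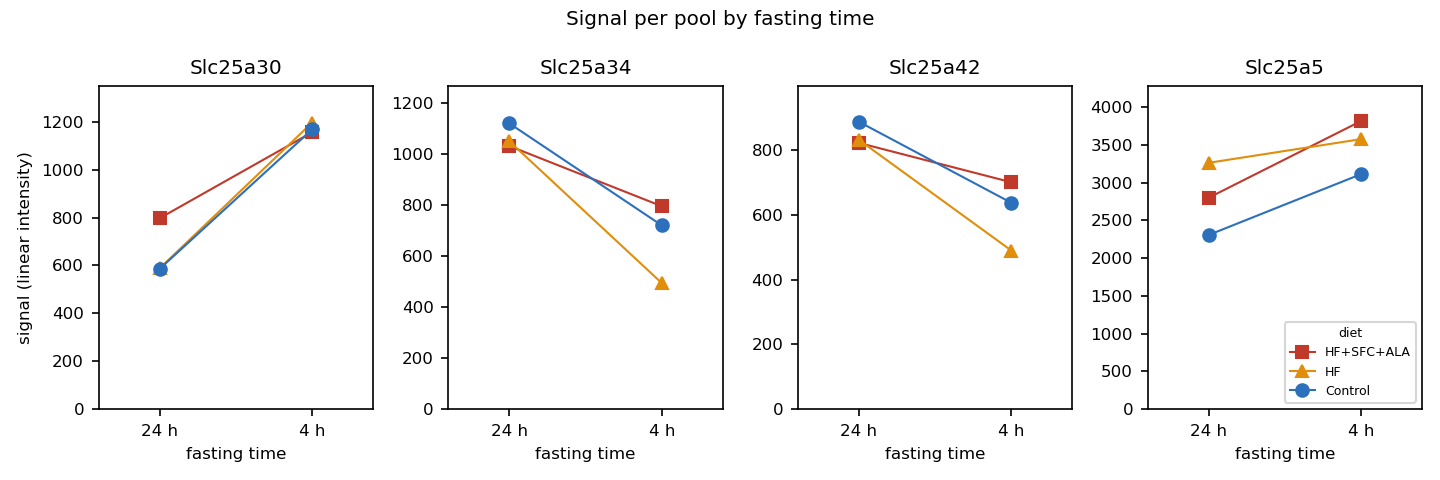
Signal (y axis, linear intensity from 0) at 24 h and 4 h of fasting (x axis) of Slc25a30, Slc25a34, Slc25a42 and Slc25a5, 1 point per pool, with lines joining the pools of a diet. All 3 Slc25a30 pools at 24 h are at or under 797 and all at 4 h at or above 1156, whereas the 24 h pools of Slc25a34 and Slc25a42 lie above those at 4 h.

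The 4 carriers of basic and branched-chain amino acids all had negative fasting differences in their chosen probe sets, and none passed. Another probe set above the filter was positive in Slc25a15 (0.12) and Slc25a44 (0.01). Of 5 in Slc25a29, 1 was positive (0.20) and 4 were negative. Slc25a15, the ornithine carrier of the urea cycle, had signals of 1262, 1231 and 1107 at 24 h in the HF+SFC+ALA, HF and Control pools, against 1434, 1435 and 1534 at 4 h. The groups did not overlap, and the difference was -0.29 ± 0.09 (limma, adjusted p = 0.134). Slc25a29, which carries basic amino acids, had 367, 466 and 434 at 24 h, against 636, 537 and 484 at 4 h. Its pools did not overlap either, and the difference of -0.39 ± 0.15 (adjusted p = 0.212) held -0.79 in HF+SFC+ALA against -0.21 in HF and -0.16 in Control. Slc25a44, a carrier of branched-chain amino acids, lay at -0.06 ± 0.11, and Slc25a2, a second ornithine carrier close to the filter, at -0.25 ± 0.32.

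Slc25a5, the ADP/ATP carrier of many tissues, had signals of 2798, 3261 and 2305 at 24 h in the HF+SFC+ALA, HF and Control pools, against 3814, 3574 and 3111 at 4 h. It was lower at 24 h in each diet, although the groups overlapped, and the difference was -0.34 ± 0.08 (limma, adjusted p = 0.0720). With 1 pool left out it ran from -0.44 to -0.28. The fasting differences of Slc25a4 and Slc25a3 were 0.03 ± 0.07 and 0.05 ± 0.07. Slc25a1, the citrate carrier, which exports citrate for fatty acid synthesis, had 83.9, 211 and 132 at 24 h, against 192, 316 and 162 at 4 h. It was lower at 24 h in each diet, most in HF+SFC+ALA (-1.19, against -0.58 in HF and -0.30 in Control), and the fitted -0.69 ± 0.22 did not pass (adjusted p = 0.145). With 1 pool left out it ran from -0.89 to -0.44.

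Slc25a39, which imports glutathione, had 8716, 9843 and 10329.8 at 24 h in the HF+SFC+ALA, HF and Control pools, against 11245, 10009.6 and 11743 at 4 h, a difference of -0.19 ± 0.08 (limma, adjusted p = 0.230). Its paralogue Slc25a40 lay at -0.30 ± 0.18. Slc25a53, which has no assigned substrate, had 127, 122 and 73.0 at 24 h, against 142, 162 and 158 at 4 h, without overlap (difference -0.56 ± 0.25, adjusted p = 0.287). Its second probe set gave 0.28, so the direction differed between its probe sets. The other uncoupling-protein-like carriers, Slc25a14 and Slc25a27, had differences of -0.22 ± 0.33 and -0.24 ± 0.30, close to the filter.

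The promoter windows of Slc25a30, Slc25a34 and Slc25a42 are shown because the first 2 carried the fasting calls and the third came nearest to them with a non-overlapping, positive difference. Each is the 250 bases before the RefSeq start of the gene (GRCm38.p6), written 5' to 3' on the gene's minus strand, at chr14:75787038-75787287, chr4:141623835-141624084 and chr8:70212282-70212531, with capitals marking the GC box GGGCGG and the CCAAT box CCAAT on either strand.
Slc25a30: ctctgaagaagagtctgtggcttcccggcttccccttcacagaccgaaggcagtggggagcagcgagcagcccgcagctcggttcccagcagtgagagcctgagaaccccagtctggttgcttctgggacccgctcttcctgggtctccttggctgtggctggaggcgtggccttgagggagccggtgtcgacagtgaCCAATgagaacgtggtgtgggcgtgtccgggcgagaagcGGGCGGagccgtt
Slc25a34: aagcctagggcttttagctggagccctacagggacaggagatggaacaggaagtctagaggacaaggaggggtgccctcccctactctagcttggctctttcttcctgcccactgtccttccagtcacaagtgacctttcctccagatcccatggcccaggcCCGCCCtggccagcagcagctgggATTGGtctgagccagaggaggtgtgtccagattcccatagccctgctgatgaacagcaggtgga
Slc25a42: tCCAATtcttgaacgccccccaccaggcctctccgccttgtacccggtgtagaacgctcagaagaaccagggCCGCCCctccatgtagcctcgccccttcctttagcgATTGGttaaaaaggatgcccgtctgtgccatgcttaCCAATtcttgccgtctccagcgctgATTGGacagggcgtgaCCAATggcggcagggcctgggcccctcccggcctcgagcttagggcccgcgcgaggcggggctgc
The window of Slc25a30 held 1 GC box and 1 CCAAT box, with 16 CpG and 64.4% GC. That of Slc25a34 also held 1 of each, with 1 CpG and 58.4% GC. That of Slc25a42 held 1 GC box and 5 CCAAT boxes, with 18 CpG and 63.6% GC. None of the 3 windows held the letters TGTTTAC (a FOXO element), TCAAGGTCA (an ERR element), TGACGTCA (a CRE) or CACGTG (an E-box) on either strand.

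RefSeq windows were matched for 32 members, in 41 windows where a gene has several starts. Some windows of the same gene overlap, as in Slc25a14 and Slc25a23, so the shares are of windows, not of members. A GC box was found in 31 of the 41 (75.6%), beside 32.7% of all 32851 windows and 42.6% of those of coding genes. A CCAAT box was found in 20 (48.8%, beside 33.8% and 35.4%) and the E-box CACGTG in 8 (19.5%, beside 6.02% and 6.63%). The CRE was found in 2 windows, those of Slc25a25 and Slc25a36 (4.88%, beside 1.55% and 1.92%). The NRF-1 element was also found in 2 (4.88%, beside 3.74% and 5.18%), while the FOXO element (3.17% and 2.62%) and the ERR element (0.387% and 0.320%) were found in 0 of the 41. The median GC content was 58.4% over the members' windows, beside 52.4% over all and 55.6% over coding windows. Both strands were searched for every motif, the GC box and CCAAT matches in the windows shown do not overlap each other, and a match describes letters, not a bound site.

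The second comparison set the HF diet against Control, within fasting times. No member passed the threshold, where 0.885% of all genes did (0.564% higher and 0.321% lower), 5 members had an unadjusted p under 0.05 beside 14.7% of all genes, and other choices of test called none without leaving out a pool. The HF and Control pools did not overlap in 16 of 36 members, beside 38.7% of all genes, with 10 higher (beside 19.7%) and 6 lower (beside 18.9%). The difference was positive in 24 members, beside 50% of all genes, with a median of 0.07, beside -0.0002 over all genes. Without the Control pool at 24 h that median was 0.00248, and without the HF pool at 24 h it was -0.00245. At both fasting times Slc25a1 and Slc25a24 were at least 1.5-fold higher in HF, beside 1.56% of all genes, and Slc25a45 at least 1.5-fold lower, beside 0.659%. In data simulated the same way, 65.9% of 2-fold and 19.3% of 1.5-fold changes were recovered in this comparison.

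Slc25a24, a calcium-regulated carrier that exchanges ATP-Mg for phosphate, had signals of 571 and 614 in the HF pools at 24 h and 4 h, against 374 and 373 in the Control pools. The 2 pools of each diet lay close together and apart from the other diet. The difference was 0.66 ± 0.17 (limma, adjusted p = 0.124), with 0.61 at 24 h and 0.72 at 4 h, and it ran from 0.50 to 0.83 with 1 pool left out. Its relative Slc25a25 had 947 and 674 in HF, against 966 and 1169 in Control. The pools differed at 4 h (-0.80) and barely at 24 h (-0.03), with a fitted -0.41 ± 0.17 (adjusted p = 0.305). With 1 pool left out the Slc25a25 difference ran from -0.70 to -0.12. Its second probe set gave 0.15. Slc25a23, the third of these carriers, had 105 and 196 in HF against 119 and 116 in Control, in opposite directions at the 2 fasting times.

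Slc25a1 had 211 and 316 in the HF pools at 24 h and 4 h, against 132 and 162 in the Control pools. Both HF pools were above both Control pools, and the difference was 0.83 ± 0.27 (limma, adjusted p = 0.210). Slc25a5 had 3261 and 3574 in HF, against 2305 and 3111 in Control, without overlap. Its difference was 0.35 ± 0.10 (adjusted p = 0.167), and it ran from 0.20 to 0.50 with 1 pool left out. Slc25a45, which has no assigned substrate, had 22.9 and 80.9 in HF, against 138 and 121 in Control. The HF pool at 24 h was under the floor, so HF was at least 5.22-fold lower than Control at 24 h. At 4 h the difference was -0.59, only just past 1.5-fold. The fitted difference was -1.49 ± 0.48 (adjusted p = 0.210). Without the Control pool at 4 h it was -1.91, with the HF pool of 4 h left out -2.41 and with that of 24 h left out -0.56. The gene had 1 probe set, close to the filter.

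**Figure D3:**
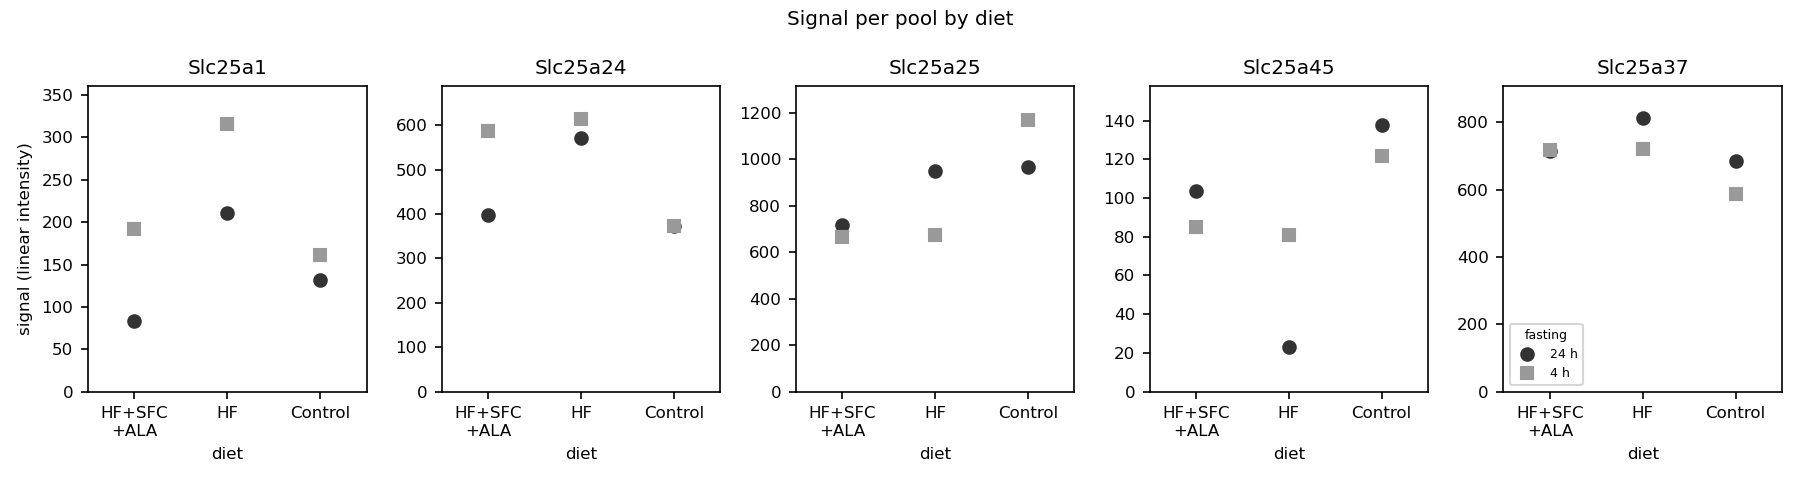
Signal (y axis, linear intensity from 0) of Slc25a1, Slc25a24, Slc25a25, Slc25a45 and Slc25a37 by diet (x axis), 1 point per pool, with circles at 24 h and squares at 4 h of fasting. The HF pools of Slc25a1 (211 and 316) and Slc25a24 (571 and 614) lie above both Control pools, and the HF pool of Slc25a45 at 24 h (22.9) lies under the floor of 26.4.

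Markers of other cells moved with the HF diet beside these values. Of 9 measured adipocyte markers, all above the filter, Lep, Adipoq and Cidec rose in HF (limma, adjusted p under 0.05). The median difference of the list was 0.9997 at 24 h and 0.75 at 4 h. The fitted difference was positive in 6 of the 9 and negative in Pnpla2 (-0.31), Pparg (-0.16) and Lpl (-0.005). Adipoq, which encodes adiponectin, had signals of 796 and 1941 in the HF+SFC+ALA pools of 24 h and 4 h, 4280 and 4637 in the HF pools and 577 and 901 in the Control pools. The summed signal of the list was 72213 and 70456 in HF+SFC+ALA, 83732 and 65025 in HF and 70030.0 and 60413 in Control at 24 h and 4 h, much of it from Fabp4 and Lpl, which muscle tissue also expresses. Macrophage markers summed to 1.61 times the Control level in HF at 24 h and 1.39 times at 4 h, with 0 of 7 called. Fibroblast markers summed to 1.25 and 1.21 times, with 3 of 6 called higher. The part of these cells in the Slc25a1, Slc25a24 and Slc25a5 values was not tested, and in whole tissue more cells of a type cannot be told apart from more RNA per cell.

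The mitoferrins bear on iron import. Slc25a37 (mitoferrin-1) had 813 and 720.1 in the HF pools at 24 h and 4 h, against 685 and 586 in the Control pools. Both HF pools were above both Control pools, and the difference of 0.27 ± 0.12 did not pass (limma, adjusted p = 0.348). Slc25a28 (mitoferrin-2) had 1666 and 1419 in HF, against 1753 and 1784 in Control, a difference of -0.20 ± 0.11 (adjusted p = 0.439). Among other members without overlap, Slc25a17, a peroxisomal carrier of cofactors, lay at 0.45 ± 0.23 and Slc25a32, a folate and FAD carrier, at -0.31 ± 0.23. The other Slc25a32 probe sets above the filter gave 0.24 and 0.26, the opposite direction. Slc25a30 and Slc25a34, called for fasting, had diet differences of 0.02 ± 0.14 and -0.32 ± 0.16.

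The third comparison set HF+SFC+ALA against HF, within fasting times. It shares the HF pools with the second, so values of opposite sign in both are not independent of each other. By limma, 0 genes in all (0%) and 0 members passed the adjusted threshold, while 3 members (Slc25a1, Slc25a10 and Slc25a32) had an unadjusted p under 0.05, beside 5.08% of all genes. The pools did not overlap in 10 of 36 members, beside 28.9% of all genes, and 13 members had a positive difference, beside 48.7%. The median was -0.05 over the members, beside -0.0049 over all genes, and it ran from -0.13 without the HF pool at 4 h to 0.05 without the HF pool at 24 h. In data simulated the same way, 66.2% of 2-fold and 18.3% of 1.5-fold changes were recovered.

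Slc25a1 had signals of 83.9 and 192 in the HF+SFC+ALA pools of 24 h and 4 h, against 211 and 316 in the HF pools. It was the one member at least 1.5-fold lower at both fasting times, beside 0.633% of all genes, and no member was so higher, beside 0.356%. The HF+SFC+ALA pools did not overlap the HF pools. The difference was -1.03 ± 0.27 (95% interval -1.63 to -0.42, limma, adjusted p = 0.580), or 2.04-fold, with -1.33 at 24 h and -0.72 at 4 h. This difference does not use the Control pools, so leaving 1 of them out could not change its value of -1.03. With an HF or HF+SFC+ALA pool left out it ran from -1.40 to -0.65. Of the 9 adipocyte markers, 4 had a positive HF+SFC+ALA minus HF difference and 0 were called, with a median of -0.10 and a range from -1.99 in Lep to 0.53 in Pparg. Adipoq, Cidec and Lep, the 3 markers called for HF, were lower in HF+SFC+ALA than in HF at both fasting times. Their differences were -1.84, -1.68 and -1.99 (limma, adjusted p = 0.0562, 0.0562 and 0.0775). The summed signal of all 9, given above, was lower in HF+SFC+ALA than in HF at 24 h and higher at 4 h. Much of that sum came from Fabp4 and Lpl. The part of adipocyte RNA in the Slc25a1 values was not tested.

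Slc25a10, the dicarboxylate carrier, had 181 and 138 in HF+SFC+ALA, against 211 and 259 in HF, a difference of -0.57 ± 0.24 (limma, adjusted p = 0.958). Its second probe set, at the edge of the filter, gave 1.49, the opposite direction. Slc25a32 had 342 and 217 in HF+SFC+ALA, against 198 and 183 in HF, a difference of 0.52 ± 0.23 (adjusted p = 0.970). Slc25a24 had 398 and 586 in HF+SFC+ALA, against 571 and 614 in HF, which is lower at 24 h (-0.52) and close at 4 h (-0.07). Slc25a45 had 104 and 85.2 in HF+SFC+ALA, against 22.9 and 80.9 in HF, so its difference of 1.03 ± 0.48 (adjusted p = 0.970) rests on the HF pool under the floor, without which it was 0.10.

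For the diet with added iron and heme precursor, neither mitoferrin passed the threshold. Slc25a37 had 716 and 719 in the HF+SFC+ALA pools of 24 h and 4 h, against 813 and 720.1 in the HF pools, a difference of -0.09 ± 0.12 with a 95% interval of -0.37 to 0.19. Slc25a28 had 1806 and 1412 in HF+SFC+ALA, against 1666 and 1419 in HF, a difference of 0.05 ± 0.11 with an interval of -0.20 to 0.31. The glutathione carrier Slc25a39 had 8716 and 11245 in HF+SFC+ALA, against 9843 and 10009.6 in HF, a difference of -0.00 ± 0.09 with an interval of -0.21 to 0.21. These values are of its chosen probe set. All 4 of its probe sets above the filter were negative in this comparison, from -0.27 to -0.004.

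Among the 22 members with more than 1 probe set, 17 had another one above the filter, 33 in all. These other probe sets had the sign of the chosen one in 22 of 33 cases for fasting, 19 for HF and 26 for HF+SFC+ALA. Slc25a30 had 3 probe sets above the filter, whose mean fasting differences ran from -0.96 to -0.85, and every diet was negative in each, HF+SFC+ALA least so. All 8 probe sets of Slc25a5 were positive for HF (0.35 to 0.79) and all 8 negative for HF+SFC+ALA (-0.40 to -0.06), and 7 of 8 were negative for fasting. Several of them are of a type that can match related transcripts, and Slc25a5 has pseudogenes, so their agreement is not independent. The 3 other Slc25a39 probe sets gave 0.24 to 0.35 for HF, against -0.15 for the chosen one. Slc25a34 had 1 probe set, so its call has no second measurement.

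**Figure D4:**
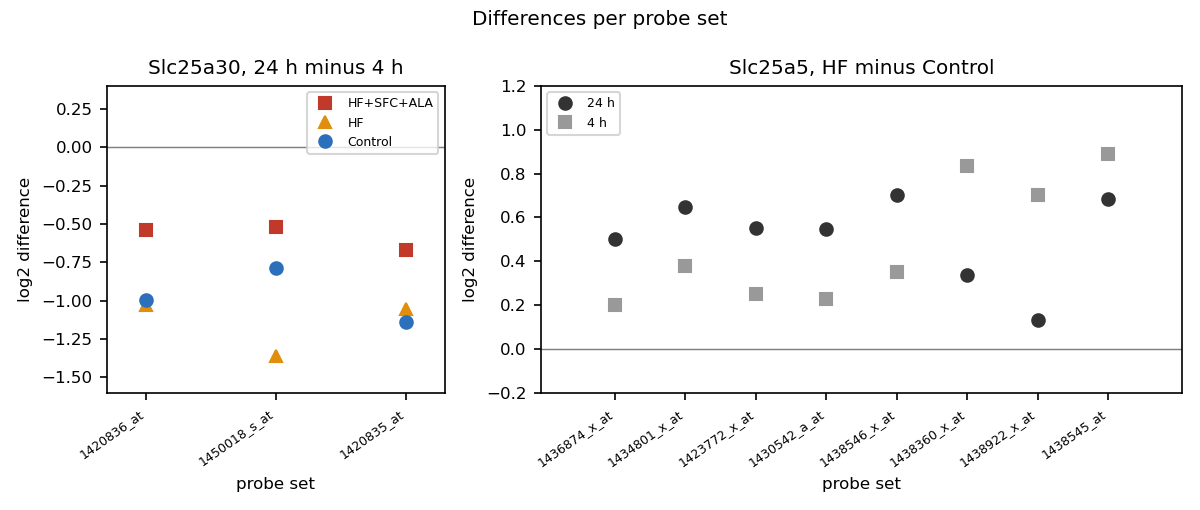
Log2 difference between pools (y axis) for each probe set above the filter (x axis), 24 h minus 4 h by diet for Slc25a30 on the left and HF minus Control by fasting time for Slc25a5 on the right, with no error bars because each point is 1 pair of pools. All Slc25a30 points lie below 0 and all Slc25a5 points above it.

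The 6 members near background had no test. Slc25a31, the ADP/ATP carrier of testis, and Slc25a41, an ATP-Mg carrier, were under the floor in all 6 pools. Slc25a13, the aspartate/glutamate carrier of liver, was under the floor in 5 pools and had 60.4 in the HF pool at 24 h. Slc25a18, a glutamate carrier, was under it in 2 pools and Slc25a54 in 4. Slc25a48 was above the floor in all 6 pools, from 31.2 to 78.6, with the mean log2 signal nearest under the filter (5.50). Just inside the filter stood Slc25a2 (5.96), Slc25a27 (6.14), Slc25a45 (6.33) and Slc25a14 (6.45), of which Slc25a45 alone had a pool under the floor.

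Other genes of carrier biology gave few differences. Of the uncoupling proteins and relatives under other symbols, Ucp3, Mtch1 and Mtch2 passed the filter and 0 of 3 were called in any comparison. Ucp3, the muscle uncoupling protein, had 5312 and 4942 in the HF+SFC+ALA pools of 24 h and 4 h, 4279 and 3409 in the HF pools and 5234 and 5431 in the Control pools. HF was lowest at both times, with an HF minus Control difference of -0.48 ± 0.10 (limma, adjusted p = 0.0695). All 10 listed genes of carrier import, which guide carriers to and into the inner membrane, passed the filter and 0 were called. Their fasting differences ran from -0.34 in Timm22, the channel of the carrier translocase, to 0.19 in the chaperone Timm10, their HF differences from -0.23 in Timm29 to 0.42 in Timm8a1, and their HF+SFC+ALA differences from -0.22 in Timm8a1 to 0.15 in Timm9. Of 16 listed other mitochondrial transporters and channels, 13 were kept and 0 called, with medians of 0.02 for fasting, 0.05 for HF and 0.03 for HF+SFC+ALA.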

How the data were processed

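The deposited values are one linear intensity per probe set and pool, made by the authors with MAS5, per the submitters' processing notes, with the version not given in the sources used here. From these, 45037 non-control probe sets were kept of 45101, and 34945 with 1 symbol were named, 34741 of them updated through the gene identifier. Log2 signals (floor 26.4) of the brightest probe set of 11526 genes above the median were fitted in R 4.3.3 with limma 3.58.1 (lmFit on diet and fasting time, then eBayes with a trend, with 2 residual and 7.27 prior degrees of freedom), adjusted by Benjamini-Hochberg at 0.05. Folds are on this log2 scale. The fit was tested on simulated data with spreads drawn from its own prior and 200 genes changed. Tables and figures used Python 3.11.15, pandas 2.3.3, numpy 2.4.6, scipy 1.17.1 and matplotlib 3.10.9. The members, role lists, pathway lists and markers were chosen with earlier results of these data known. Every member was to be accounted for, naming first those past the threshold, then those 1.5-fold apart in every pair of pools. Alternatives were quantile normalization, 2 other filters, no floor, a pseudocount, the mean over probe sets, no trend, no diet term and each pool left out.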

Additional observations from a re-analysis of the deposited data

Results flagged for a closer look

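Slc25a14, a carrier related to the uncoupling proteins, differed in sign between diets under fasting: 24 h minus 4 h was 0.61 in HF and -0.89 in Control, a gap of 1.495 on the log2 scale. Its signals were 117 in HF and 86.3 in Control at 24 h, against 76.6 in HF and 159.7 in Control at 4 h, from 1 probe set close to the filter. With 1 pool per combination the difference was not tested.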

How the results depend on the processing

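The genes called for fasting, 278 in all, were 0 without the filter, 0 without the trend, 18 with the mean over probe sets, 60 with diet left out of the model (no replicate block), and 59 to 455 with 1 pool left out. The Slc25 members called for fasting, 2 in all, were 0, 0, 0 and 1 under those settings and 1 to 4 with 1 pool left out. The 102 genes called for HF were 0 without the filter, 0 without the trend, 1 with the mean over probe sets and 47 to 592 with 1 pool left out, and the members 0 to 2. For HF+SFC+ALA, 0 genes became 6 with the filter at the 65th percentile and 0 to 109 with 1 pool left out, and the members 0 to 1. The members' median was -0.030 for fasting with the filter at the 65th percentile (-0.06 to -0.04 with 1 pool left out), -0.00245 to 0.092 for HF and -0.13 to 0.049 for HF+SFC+ALA with 1 pool left out. Slc25a30 passed for fasting in 11 of 14 alternatives, all 6 left-out pools included, and not without the filter (adjusted p = 0.342), without the trend (0.280) or with the mean over probe sets (0.153). Slc25a34 passed in 6 of 14, with adjusted p up to 0.405. Of 1413 alternatives of single members, 1276 kept direction and side of the threshold, 112 changed sign without a call on either side, 14 gained and 11 lost a call, and the cause was not tested. The fit as reported pairs pools within a diet or a fasting time, and replicate numbers pair nothing, since each combination holds 1 pool. Signals near the floor and the number of arrays limit the precision.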
